A study of Homo sapiens with 18 samples.

Results

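The 7 genes described here, S100A16, S100A4, S100A6, S100A10, S100A11, S100A13 and S100A14, belong to the S100 family of small calcium-binding proteins. They are 7 of the 28395 genes of a table of raw RNA-seq counts from 3 human multiple myeloma cell lines, and were matched by symbol. The set was chosen by a measured value, the large rise of S100A16 in OPM2 cells, so the values of these 7 genes in treated OPM2 cells are given as a description, without a test. Of the 7 genes, 6 passed the filter on low counts. S100A14 had 0 counts in all 18 libraries, which for 3 counts over a group of 2 libraries allows a level of up to 0.0742 to 0.116 CPM (counts relative to the TMM-adjusted library total).

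S100 proteins usually form dimers, bind calcium through EF-hand loops and then expose a surface that docks onto partner proteins. S100A10 is the exception that has lost calcium binding and instead sits in a stable complex with annexin A2 at the plasma membrane. Most S100 genes lie in the epidermal differentiation region of chromosome 1q, a chromosome arm that is often gained in myeloma. IKZF1 (Ikaros) and IKZF3 (Aiolos) are zinc finger transcription factors of lymphoid cells, and lenalidomide directs both to degradation through the ubiquitin ligase adaptor cereblon.

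The libraries formed 9 groups of 2. H929, MM1S and OPM2 cells that carried an inducible CRISPR-Cas9 system against IKZF1 were set beside cells of the same line with an empty vector, and OPM2 cells had a knockout of IKZF3 as well; all of these received doxycycline at 1 µg/mL for 72 h. Separate OPM2 cells without doxycycline were given lenalidomide at 10 µM for 72 h or left untreated. Live cells were sorted before RNA was taken, and the labels do not say whether the 2 libraries of a group came from separate cultures, clones or guides, so p-values measure the spread between these libraries, which may be technical. The 2 knockout libraries of a group are called a and b, since their columns carry other numbers than the sample titles. In the column names the OPM2 IKZF1 knockout pair carries different codes, 20B and 20C, while each other knockout pair shares its code; what the codes stand for is not stated.

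Libraries held 11.8 to 24.19 M counts. The OPM2 empty vector pair stood apart: 1638 genes differed more than 2-fold between its 2 libraries, against 258 to 980 within the other groups. This count does not say which of the 2 is the unusual one. All 7 plasma cell markers (among them SDC1, IRF4 and JCHAIN) were present in every library, and the B cell marker MS4A1 was at 0 in all 18. Neither targeted transcript averaged less in its knockout: IKZF1 averaged 124 CPM in H929 empty vector and 156.2 in the knockout, 181.8 and 322.5 in MM1S, and 141.2 and 218.7 in OPM2, and IKZF3 averaged 47.18 CPM in OPM2 empty vector and 67.96 in its knockout. A frameshift need not lower a transcript, so these values do not check the knockout labels.

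All 7 genes lie on the minus strand of chromosome 1. In RefSeq's GRCh38.p14 annotation S100A16 (Entrez 140576) spans chr1:153606883-153613137, with S100A14 (57402) at chr1:153614255-153616325 and S100A13 (6284) at chr1:153618799-153634361 beside it. S100A4 (6275) spans chr1:153543621-153545806 and S100A6 (6277) chr1:153534599-153535991. S100A10 (6281) at chr1:151982915-151993859 and S100A11 (6282) at chr1:152032506-152037004 form a separate pair. S100A13 overlaps S100A1 over 3606 bases and CHTOP over 296 bases, and S100A4 overlaps S100A5 over 65 bases; the sources used here do not say whether reads were counted by strand, so the low S100A13 counts can include reads of those neighbours.

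The promoter windows of the genes that differ most in behaviour are shown, from 250 bases before to 50 bases after the RefSeq start (GRCh38.p14, minus strand, written 5′ to 3′): S100A16 with its 2 annotated starts, which was near 0 in control cells and high in treated OPM2 cells; S100A10, which was lower in MM1S without IKZF1; and S100A11, which was high everywhere. Capitals mark each match to GGGAA, the core of the sequence that Ikaros family zinc fingers recognise, on either strand (TTCCC where it lies on the other strand).
S100A16 start 1, chr1:153613088-153613387: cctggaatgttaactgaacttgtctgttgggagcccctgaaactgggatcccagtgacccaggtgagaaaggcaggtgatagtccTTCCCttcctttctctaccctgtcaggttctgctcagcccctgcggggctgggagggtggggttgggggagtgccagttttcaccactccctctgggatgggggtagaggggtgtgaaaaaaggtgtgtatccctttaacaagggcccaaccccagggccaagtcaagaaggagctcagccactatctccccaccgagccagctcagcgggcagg
S100A16 start 2, chr1:153609306-153609605: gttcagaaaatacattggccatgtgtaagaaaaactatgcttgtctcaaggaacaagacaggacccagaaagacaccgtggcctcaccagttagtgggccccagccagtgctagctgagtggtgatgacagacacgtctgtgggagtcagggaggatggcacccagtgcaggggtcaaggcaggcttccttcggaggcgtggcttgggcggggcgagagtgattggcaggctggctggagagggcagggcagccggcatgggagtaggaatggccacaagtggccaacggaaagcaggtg
S100A10, chr1:151993810-151994109: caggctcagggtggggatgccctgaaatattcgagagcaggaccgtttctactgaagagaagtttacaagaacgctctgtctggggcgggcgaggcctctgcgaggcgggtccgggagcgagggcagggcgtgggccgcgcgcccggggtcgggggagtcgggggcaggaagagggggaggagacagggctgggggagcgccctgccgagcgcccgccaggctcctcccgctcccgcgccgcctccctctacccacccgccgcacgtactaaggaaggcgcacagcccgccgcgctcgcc
S100A11, chr1:152036955-152037254: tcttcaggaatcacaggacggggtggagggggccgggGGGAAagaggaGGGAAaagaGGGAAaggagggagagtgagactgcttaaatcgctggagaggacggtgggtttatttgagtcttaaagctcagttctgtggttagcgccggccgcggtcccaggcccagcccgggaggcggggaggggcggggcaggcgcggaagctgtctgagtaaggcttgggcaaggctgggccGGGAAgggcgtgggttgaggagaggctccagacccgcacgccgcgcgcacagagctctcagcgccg
S100A16 had 1 match at its first start, 165 bases before it on the reverse strand, and 0 at its second. S100A10 had 0 and S100A11 had 4. Of the others, S100A4 had 2 matches, S100A6 had 0, S100A14 had 2, and S100A13 had 1 at its second of 3 starts and 0 at the other two. At least 1 match was present in 65% of all 35116 promoter windows of this length (27305 genes), and the longer TGGGAA in 24%. A match is a description of letters, not a binding site.

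S100A16, a widely expressed family member with 1 working calcium loop per chain, was close to absent in every control group and high in OPM2 cells that lacked IKZF1 or received lenalidomide. OPM2 empty vector libraries held 6 and 2 counts (0.441 and 0.0913 CPM) and untreated OPM2 libraries 6 and 4 (0.276 and 0.286 CPM). The IKZF1 knockout libraries held 592 and 825 counts (38.5 and 48.5 CPM). Those treated with lenalidomide held 452 and 375 (29.5 and 30.4 CPM). The IKZF3 knockout libraries held 32 and 118 (2.01 and 4.81 CPM). Both libraries of each treated group lay above all 4 control libraries of OPM2, and the IKZF3 knockout pair lay below both other treated pairs.

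Group means of S100A16 put these levels in order. The IKZF1 knockout averaged 43.5 ± 7.07 CPM (SD, n = 2), lenalidomide 30.0 ± 0.635, the IKZF3 knockout 3.41 ± 1.97, untreated cells 0.281 ± 0.0074 and empty vector 0.266 ± 0.247. The first 3 groups did not overlap with one another, whereas both untreated libraries fell between the 2 empty vector libraries. The fitted log2 fold change was 7.53 ± 0.50 (SE; 185-fold) for the IKZF1 knockout, 3.91 ± 0.59 (15-fold) for the IKZF3 knockout, and 6.70 ± 0.49 (104-fold) for lenalidomide against untreated cells. The knockout values share their controls and rest on 8 control counts, and they move with the control library kept: without empty vector replicate 1 they were 8.81 and 5.21, and without replicate 2 they were 6.60 and 2.996. Without IKZF3 knockout library b the IKZF3 value was 3.10. Against the untreated libraries, an alternative chosen after seeing the data, they were 7.24 and 3.62.

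**Figure D1:**
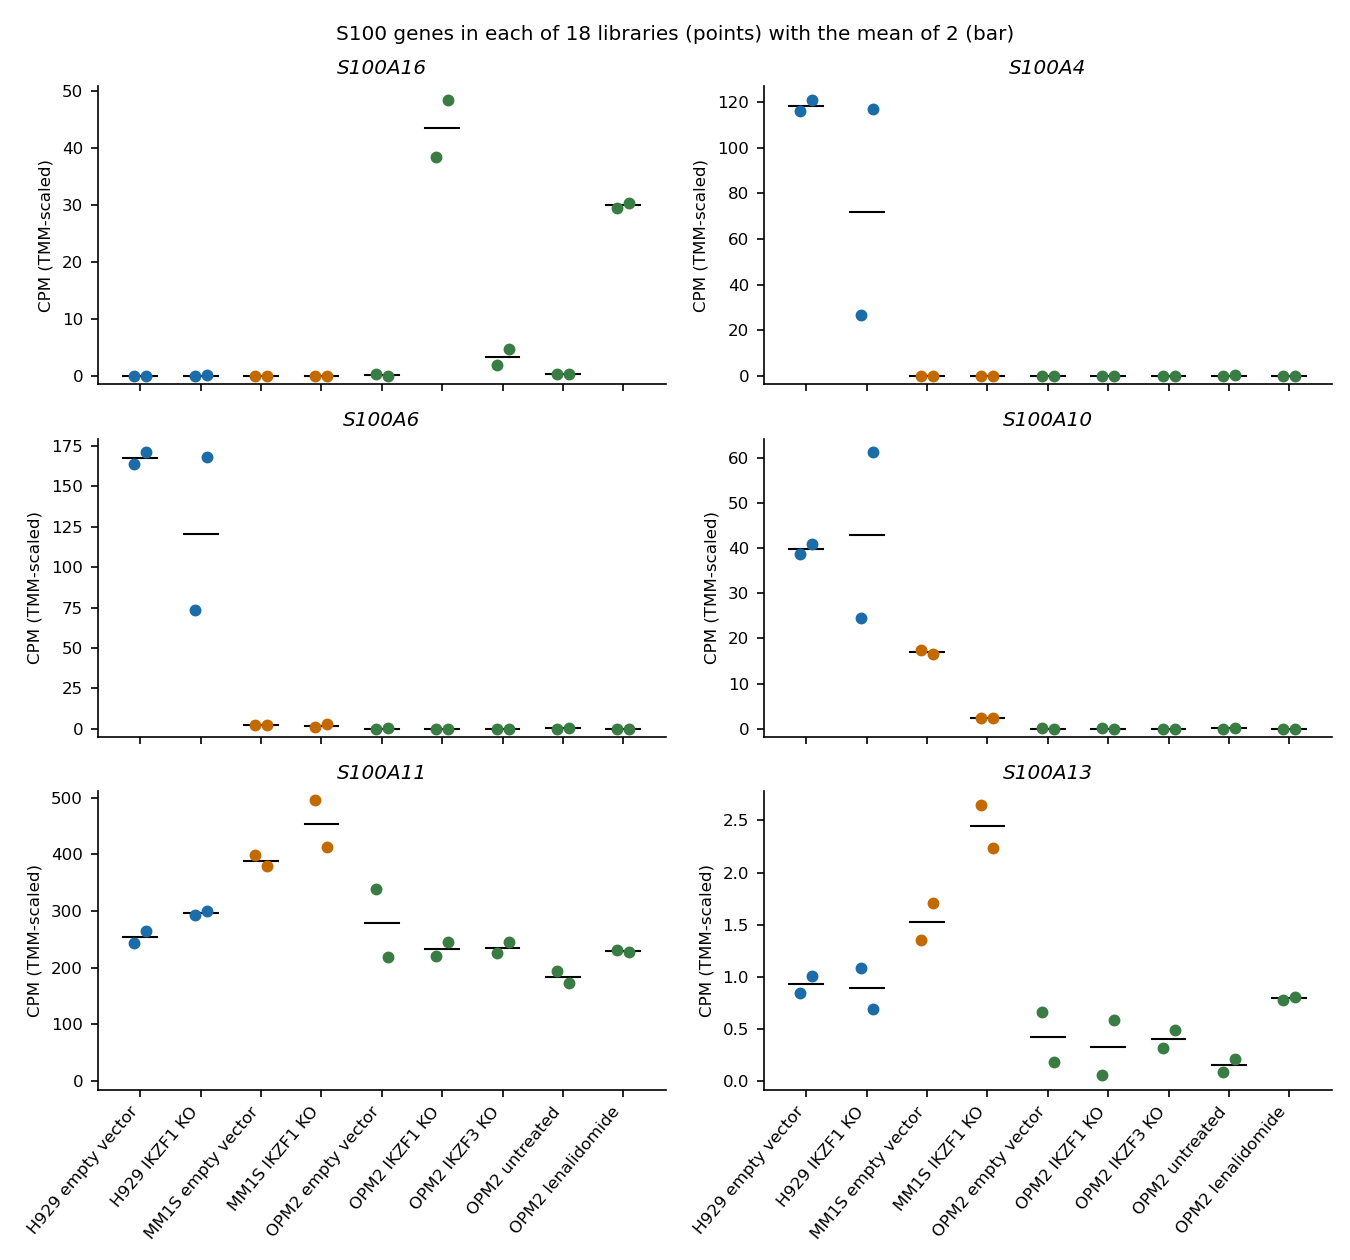
Level of 6 S100 genes in each of 18 libraries (points, CPM on a linear axis that differs between panels), with the mean of each group of 2 as a bar and cell lines by colour. S100A16 is above 1 CPM only in the 6 libraries of OPM2 cells with a knockout or lenalidomide, S100A4 only in the 4 H929 libraries, and S100A11 lies between 174 and 495 CPM in all 18.

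The other two lines did not show S100A16 at a level that these counts can resolve. H929 held 0 and 1 counts with empty vector and 0 and 2 without IKZF1, and all 4 MM1S libraries held 0. Both sides of each comparison were at or under 3 counts, so no fold is given. Over these groups 3 counts stand for 0.0802 to 0.116 CPM, and levels of that order remain possible. This is not an upper limit where counts were seen: H929 knockout library b alone was at 0.154 CPM (2 counts). In the authors' deposited table of log2 FPKM, a per-length scale, S100A16 stood at 4.59 and 4.92 in the OPM2 IKZF1 knockout, at 4.21 and 4.25 with lenalidomide and at 0.67 and 1.76 in the IKZF3 knockout. Their single values for untreated and empty vector OPM2 cells were -2.26 and -2.29.

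Candidates for a pattern like that of S100A16 were 11267 other tested genes whose log2 CPM averaged 1 or more. Genes without a symbol, pseudogenes and genes with LOC or LINC names were left out of the search. Those close to S100A16 across all 18 libraries (Pearson r of log2 CPM) included CC2D1B at 0.919, C10orf99 at 0.903, CCNYL1 at 0.901 and FNBP1L at 0.899. FNBP1L averaged 6.92 CPM in OPM2 empty vector, 25.4 in the IKZF1 knockout, 16.5 in the IKZF3 knockout, 9.88 untreated and 23.8 with lenalidomide, and 2.05 to 3.75 in the H929 and MM1S groups. Over the 10 OPM2 libraries alone the closest were IL13RA1 at 0.993, MAMDC2 at 0.984, ACY3 at 0.967, GAS2L1 at 0.965 and SLC31A2 at 0.962. IL13RA1, an interleukin-13 receptor chain, averaged 2.05 CPM in OPM2 empty vector and 11.8, 5.11 and 10.9 in the IKZF1 knockout, IKZF3 knockout and lenalidomide groups. It was also present in MM1S, at 5.72 CPM with empty vector, where S100A16 was at 0. These correlations describe libraries that share lines and control groups.

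Genes around S100A16 were read next to it. Within 500 kb the count table held 30 genes outside the S100 family, of which 12 were tested. In the OPM2 IKZF1 knockout 0 of the 12 were called higher and 5 lower, in the IKZF3 knockout 1 higher and 4 lower, and with lenalidomide 0 in either direction, where 36.3%, 36.8% and 10.3% of all genes were called. The nearest tested neighbour, CHTOP, 20929 bases away, which encodes a chromatin-associated RNA export factor, had log2 fold changes of -0.58, -0.56 and 0.04 in the same order. The empty vector group shared by both knockouts itself differed from untreated cells in the fit of all libraries. CHTOP averaged 164.1 ± 39.3 CPM (SD, n = 2) with empty vector and 102.5 untreated (edgeR adjusted p = 0.00374). It averaged 109.4 and 111.2 CPM in the IKZF1 and IKZF3 knockouts and 105.3 with lenalidomide. With empty vector against untreated, 6 of the 12 neighbours were called higher and 1 lower, where 35.3% of all genes were called. A fit of the compared libraries alone called 0 of 12434 genes. On the other side the nearest gene, LOC101928034, 55114 bases away, had too few counts to be tested. In MM1S without IKZF1, 5 of the 12 were lower and 0 higher (median log2 fold change -0.21, against 0.00308 over all genes tested, of which 28.2% were called): CHTOP, ILF2, SLC27A3, DENND4B and SLC39A1. In H929, where 10.5% of all genes were called, SLC39A1 was higher and the other 11 did not pass. These were named after their values were seen.

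In OPM2 the other 6 genes had these values. S100A4 held 0 to 4 counts in the 10 OPM2 libraries, S100A6 0 to 6 and S100A10 0 to 3. The highest of these counts, 4, 6 and 3, all came from untreated replicate 2. S100A11, which binds annexin A1 and takes part in membrane repair, was at 221 and 246 CPM in the IKZF1 knockout, 226 and 245 in the IKZF3 knockout, and 231 and 227 with lenalidomide. The controls were at 339 and 219 CPM with empty vector and 195 and 174 untreated, so both knockouts lay within the empty vector pair (log2 fold changes of -0.26 ± 0.16 and -0.24 ± 0.16), and lenalidomide lay above untreated cells (0.31 ± 0.16). S100A13, a copper-binding protein that helps export FGF1 by a route without a signal peptide, held 12 and 10 counts with lenalidomide against 2 and 3 in untreated cells, and 1 to 12 in the knockouts against 9 and 4 with empty vector.

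H929 was the line rich in S100A4, S100A6 and S100A10. S100A4, which binds non-muscle myosin and is tied to cell motility, was at 116 and 121 CPM in H929 empty vector libraries (2053 and 2384 counts) and had 0 counts in both MM1S empty vector libraries. S100A6 (calcyclin), which binds the ubiquitin ligase cofactor CACYBP, was at 164 and 171 CPM in H929 and at 2.29 and 2.18 in MM1S. S100A10 was at 38.7 and 40.9 CPM in H929 and at 17.4 and 16.6 in MM1S. The groups did not overlap for any of these 3 genes. S100A11 was the reverse, at 244 and 265 CPM in H929 and 399 and 379 in MM1S.

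With empty vector, H929 exceeded MM1S at least 1270-fold for S100A4 against the floor of 3 counts over the MM1S pair (edgeR adjusted p = 1.23e-07). The log2 fold change was 6.22 ± 0.46 for S100A6, or 74.7-fold (adjusted p = 9.82e-08), 1.23 ± 0.33 for S100A10 (adjusted p = 0.0053) and -0.61 ± 0.16 for S100A11 (adjusted p = 0.00442). S100A13 was low in both, at 15 and 20 counts in H929 and 23 and 26 in MM1S, and its difference did not pass (adjusted p = 0.218). These are 4 called genes of 6 tested, 3 higher and 1 lower, in a comparison where 63.2% of all genes were called. The 6 include S100A16, which was at or under 3 counts in both groups and could not be called. All 4 calls held in each of 14 alternatives. H929 also had more CD3E and KRT18 than the other lines: the 4 T and NK cell markers summed to 30.2 to 43.9 CPM in H929 against at most 3.26 in MM1S and 0.457 in OPM2, and the 5 epithelial markers to 20.6 to 34.6 CPM against at most 0.294 and 0.653. Of the other list genes, NKG7 reached 3.78 CPM and KRT8 2.78, each above every MM1S and OPM2 sum of its list. CD2 reached 1.02 CPM. KRT19 reached at most 2 counts, and CD3D, EPCAM and CDH1 at most 4, in any library.

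OPM2, too, had little S100A4, S100A6 or S100A10. Between the empty vector groups of OPM2 and H929, S100A4 was 2110-fold lower in OPM2 (2 counts; 95% counting interval 583 to 17400; adjusted p = 1.3e-07) and S100A10 1420-fold lower (1 count, in replicate 1; interval 254 to 56000; adjusted p = 6.58e-08). S100A6 differed by -10.45 ± 0.65 on the log2 scale (adjusted p = 2.08e-08). These were 3 of 5 genes tested, where 64.6% of all genes were called. For S100A13 the log2 fold change was -1.29 ± 0.60 and did not pass (edgeR adjusted p = 0.0717), though the OPM2 libraries lay below those of H929. With no low-count filter it was called (edgeR adjusted p = 0.0414). Over 11 alternatives its value ran from -2.34 to -0.49. S100A11 did not pass (log2 fold change 0.13 ± 0.16, adjusted p = 0.504); without OPM2 empty vector replicate 1 its sign turned, to -0.25 (adjusted p = 0.0497), and without replicate 2 it was 0.41 (adjusted p = 0.00255).

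Against MM1S, OPM2 empty vector cells were lower in 4 of the 5 genes tested, with 67.5% of all genes called. The 5 include S100A4, which held 2 counts in OPM2 and 0 in MM1S and could not be called. S100A10 was 605-fold lower (interval 108 to 23900; adjusted p = 3.31e-07), S100A6 differed by -4.22 ± 0.95 (adjusted p = 0.00152), S100A13 by -1.99 ± 0.57 (adjusted p = 0.00629) and S100A11 by -0.48 ± 0.16 (adjusted p = 0.0169). S100A6, S100A11 and S100A13 each lost the call without empty vector replicate 2 (adjusted p = 0.124, 0.111 and 0.094). S100A6 also lost it without replicate 1 (adjusted p = 0.0956), and S100A11 in a fit of the compared libraries alone (adjusted p = 0.152). Without replicate 1 S100A13 was at -3.05. The S100A10 call held in all 12 alternatives.

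Vector and doxycycline together were compared with no treatment in OPM2. S100A11 was higher with empty vector, by 0.59 ± 0.16 on the log2 scale (adjusted p = 0.0125), the 1 called gene of 5 tested where 35.3% of all genes were called. The call was lost without empty vector replicate 1, at 0.21 (adjusted p = 0.192), without untreated replicate 2 (adjusted p = 0.11) and in a fit of the compared libraries alone (adjusted p = 0.256).

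Levels can be set against each other per length in the authors' deposited log2 FPKM table. S100A11 stood highest of the 6 listed genes in every column, at 8.31 to 9.72. In H929 empty vector S100A6 at 7.97 and S100A4 at 7.72 came next, then S100A10 at 5.22, with S100A13 below 0. In MM1S empty vector the order was S100A11 at 9.53, S100A10 at 3.98, S100A6 at 1.61 and S100A13 at -0.19. In OPM2 without IKZF1, S100A16 was second to S100A11.

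**Figure D2:**
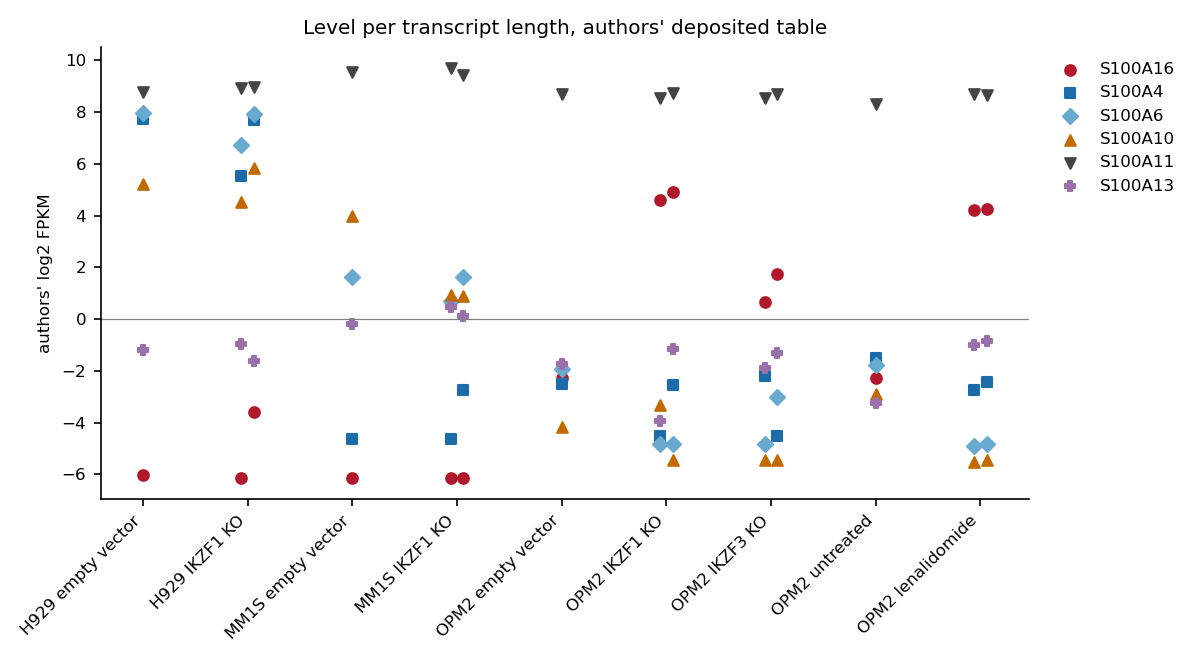
Authors' deposited log2 FPKM of 6 S100 genes by group; knockout and lenalidomide groups show 2 libraries, control groups the authors' single merged value, and some low values overlap. S100A11 lies between 8.31 and 9.72 throughout, while S100A16 goes from -2.29 and -2.26 in OPM2 controls to 4.92 at most in the IKZF1 knockout.

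The response to IKZF1 loss was tested in H929 and MM1S, whose comparisons did not choose the set. In MM1S, S100A10 fell. Its empty vector libraries held 296 and 252 counts (17.4 and 16.6 CPM) and its knockout libraries 35 and 30 (2.38 and 2.48 CPM), with no overlap. The mean went from 17.0 ± 0.545 to 2.43 ± 0.0756 CPM (SD, n = 2 each), a log2 fold change of -2.81 ± 0.41, or 6.99-fold lower (edgeR adjusted p = 0.000246; 13 of 13 alternatives called it, with adjusted p from 4.3e-27 to 0.00604). It was the 1 called gene of 6 tested, where 28.2% of all genes were called. The 6 include S100A16 and S100A4, which were at or under 3 counts in both MM1S groups and could not be called.

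The remaining genes did not pass in MM1S. S100A6 held 39 and 33 counts with empty vector and 19 and 32 without IKZF1 (log2 fold change -0.22 ± 0.58, adjusted p = 0.833). S100A11 was at 399 and 379 CPM and then 495 and 413, apart from each other but by less than the shared spread allows to call (0.22 ± 0.16, adjusted p = 0.34); without OPM2 empty vector replicate 1 it was called (adjusted p = 0.038), as it was in a fit of the compared libraries alone (adjusted p = 0.0396). S100A13 held 23 and 26 counts and then 39 and 27 (0.68 ± 0.45, adjusted p = 0.292). S100A4 had 1 count in 1 of the 4 libraries.

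In H929, 0 of the 6 tested genes passed after IKZF1 loss, and 0 had an unadjusted p below 0.05 in edgeR, where 10.5% of all genes were called. The 6 include S100A16, which passed the low count filter through treated OPM2 libraries. It was at or under 3 counts in both H929 groups and could not be called. The 2 knockout libraries disagreed. S100A4 was at 26.8 CPM in library a and 117 in library b, S100A6 at 73.2 and 168, and S100A10 at 24.5 and 61.2. Library a was below both empty vector libraries for all 3 genes, while library b lay between them for S100A4 and S100A6 and above them for S100A10. The log2 fold changes were -0.72 ± 0.42 for S100A4 (adjusted p = 0.35), -0.48 ± 0.33 for S100A6 (adjusted p = 0.454) and 0.11 ± 0.32 for S100A10 (adjusted p = 0.905). Without library b, S100A4 was at -2.15 (adjusted p = 8.48e-05) and S100A6 at -1.196 (adjusted p = 0.0367). S100A4 was also called with no filter on low counts (adjusted p = 0.00123). S100A11 was at 293 and 300 CPM without IKZF1, above 244 and 265 (0.22 ± 0.16, adjusted p = 0.485), and S100A13 held 14 and 9 counts against 15 and 20 (adjusted p = 0.977).

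**Figure D3:**
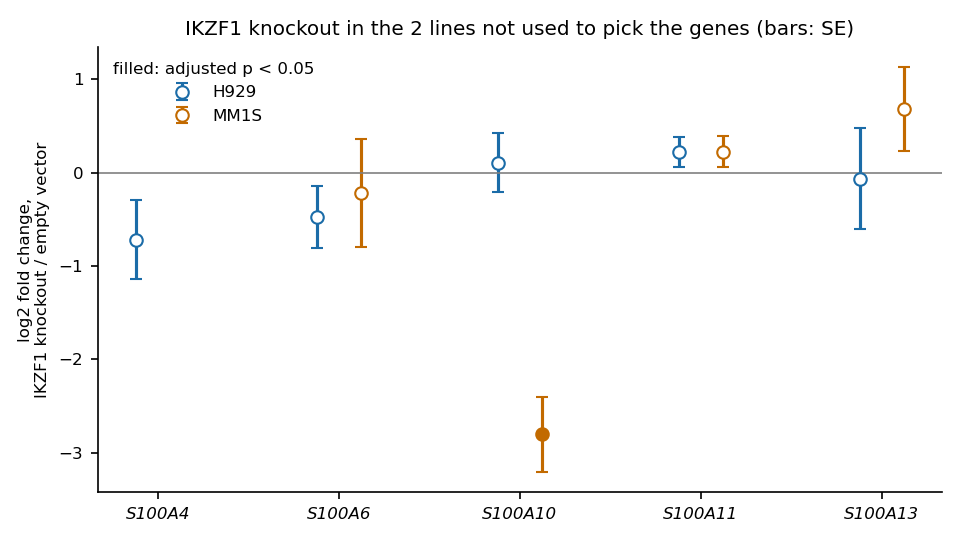
Log2 fold change of IKZF1 knockout over empty vector (bars, SE) for 5 S100 genes in H929 and MM1S, 2 libraries a group; filled points have an adjusted p below 0.05, and S100A4 in MM1S has no fold because both groups are at or under 3 counts. S100A10 in MM1S, at -2.81, is the filled point.

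The effect of IKZF1 loss on S100A10 differed between the lines, by 2.91 ± 0.52 on the log2 scale for H929 minus MM1S (adjusted p = 0.00198; 17 of 17 alternatives). The size moved with the H929 knockout library kept, from 2.11 without library b to 3.43 without library a. It was the 1 of 6 S100 genes for which the difference passed, where 15.9% of all genes did. The 6 include S100A16, at or under 3 counts in every group compared, and S100A4, at or under 3 counts in both MM1S groups. Marker lists also moved with the knockout in MM1S. The 7 plasma cell markers summed to 6850 to 6960 CPM with empty vector and 11000 to 11300 without IKZF1. The 3 fibroblast markers summed to 0.132 to 0.176 and then 1.22 to 1.9 CPM. Over all 18 libraries COL1A1 reached 1.82 CPM, and COL1A2 and DCN at most 1 count. The 6 myeloid markers summed to 2.53 to 3.17 CPM with empty vector and 6.65 to 8.94 without IKZF1. In their highest libraries of the 18, S100A9 reached 3.81 CPM, ITGAM 2.65, CD14 2.48 and CSF1R 0.706. S100A9, ITGAM and CD14 there exceeded every sum of this list in H929 and OPM2, at most 1.08 and 0.824 CPM. LYZ reached at most 3 counts and S100A8 at most 1 in any library. The part of these lists in the fall of S100A10 was not tested.

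S100 proteins act through partners, and a list of 23 partner and receptor genes held 18 that were tested. In MM1S without IKZF1, 5 were higher and 4 lower, where 28.2% of all genes were called (median log2 fold change 0.0252, against 0.00308 over all genes tested). In H929, 3 were higher and 3 lower, where 10.5% were called (0.0443, against -0.0312). Both counts depend on single libraries: the 9 calls in MM1S became 3 and 5 without empty vector replicate 1 and 2, and 5 or 4 when knockout library a or b was left out. The 6 calls in H929 became 1 without either empty vector library and 3 without either knockout library. In a fit of the compared libraries alone MM1S had 14. Of the S100A10 partners tested, AHNAK and ANXA2 were lower in MM1S. AHNAK, a giant scaffold protein that docks onto the S100A10 and annexin A2 complex, was at 157 and 163 CPM with empty vector and at 4.96 and 4.64 without IKZF1 (log2 fold change -5.05 ± 0.38, adjusted p = 3.74e-07). ANXA2, annexin A2 itself, was at 237 and 226 CPM and then at 98.0 and 102 (-1.22 ± 0.14, adjusted p = 1.85e-05). Both held in 13 of 13 alternatives, among them the fit without OPM2 empty vector replicate 1. HLTF, a further known S100A10 partner, did not pass (-0.19 ± 0.23, adjusted p = 0.579).

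In H929 the same partners parted. AHNAK was at 191 and 178 CPM with empty vector and 270 and 450 without IKZF1 (0.97 ± 0.29, adjusted p = 0.0495; called in 6 of 13 alternatives, with adjusted p from 1.67e-10 to 0.369, and lost without either empty vector library or knockout library b). ANXA2 was lower, at 102 and 119 CPM against 162 and 167 (-0.58 ± 0.14, adjusted p = 0.0145; lost without either empty vector library or knockout library a, at most to 0.154). The difference between the lines was 6.02 ± 0.47 for AHNAK (adjusted p = 1.66e-06; 17 of 17) and 0.64 ± 0.20 for ANXA2 (adjusted p = 0.0383; 10 of 17, lost without any 1 of the MM1S libraries, either H929 empty vector library or H929 knockout library b). In OPM2, where S100A10 was near 0, AHNAK was abundant, at 366 and 887 CPM with empty vector, 1430 and 1530 untreated, and 1790 to 2230 in treated cells.

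**Figure D4:**
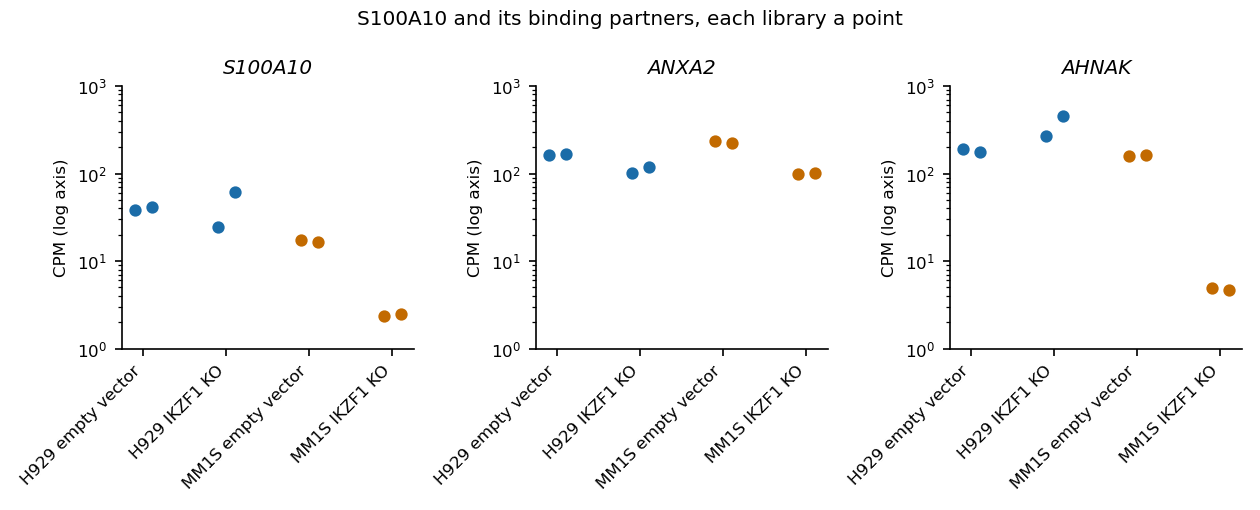
S100A10, ANXA2 and AHNAK in H929 and MM1S, CPM on a log axis, each point a library. In MM1S all 3 genes lie lower without IKZF1 (S100A10 from 17.0 to 2.43 CPM on average), and in H929 AHNAK lies higher.

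Partners of the other S100 genes moved in both directions. PPFIBP1 (liprin beta 1), a partner of S100A4, was higher without IKZF1 in H929 (1.201 ± 0.305, adjusted p = 0.0193; lost without either empty vector library or knockout library a) and in MM1S (1.14 ± 0.27, adjusted p = 0.00579; 0.0569 without empty vector replicate 1). MYH9, the non-muscle myosin heavy chain that S100A4 binds, was higher in MM1S (0.38 ± 0.13, adjusted p = 0.036; lost without any 1 of the 4 MM1S libraries) and had a log2 fold change of -0.03 ± 0.13 in H929 (adjusted p = 0.932). ANXA1, the partner of S100A11, was higher in H929 (1.31 ± 0.36, adjusted p = 0.0304; 8 of 13 alternatives, lost without any 1 of the 4 H929 libraries). SYT1 (synaptotagmin 1), part of the S100A13 export complex, was higher in MM1S (1.30 ± 0.24, adjusted p = 0.00103) and had -1.09 ± 0.36 in H929 (adjusted p = 0.0696), with a difference of -2.39 ± 0.43 between the lines (adjusted p = 0.00149). CACYBP and ANXA11, partners of S100A6, passed in neither line, and FGF1 had 0 counts throughout. The other called list genes, named after their values were seen, were TLR4 and DLC1 (lower in H929), ANXA6 and MDM2 (higher in MM1S), and SUGT1 and DLC1 (lower in MM1S).

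Of the 14 other genes with an S100 name in the table, 3 were tested and 4 had 0 counts in all libraries. S100Z rose in MM1S without IKZF1, from 22 and 24 counts to 72 and 70 (log2 fold change 1.89 ± 0.37, adjusted p = 0.00406; called in 11 of 12 alternatives, and at 0.054 without empty vector replicate 1). S100A9, a subunit of the myeloid protein calprotectin and one of the myeloid markers above, rose from 13 and 16 counts to 30 and 46 (1.67 ± 0.44, adjusted p = 0.0176; 8 of 12, lost without either empty vector library or knockout library b). In H929 S100A9 held 3 and 2 counts with empty vector and 5 and 9 without IKZF1. That change did not pass (1.959 ± 0.749, edgeR adjusted p = 0.147), though limma-voom called it (1.832, adjusted p = 0.047). The difference between the lines did not pass for S100A9 (0.2912 ± 0.785, edgeR adjusted p = 0.883). In OPM2 S100A9 had 0 counts in all 10 libraries and S100Z at most 1. S100PBP, which encodes an S100P-binding protein rather than a family member, passed in neither line.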

How the data were processed

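The authors deposited raw counts per Entrez gene (28395 genes, 18 columns) and a table of log2 FPKM values (16352 genes, 14 columns, each control group merged into 1). Subread, featureCounts, limma and GRCh38 are named in the submitters' processing notes, without versions or strand settings. The 385 genes without a symbol took 0.0122% to 0.0276% of a library.

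The counts went into edgeR 4.0.16 (R 4.3.3): filterByExpr by group (14571 genes left), TMM scaling, 1 robust quasi-likelihood fit of all 18 libraries with a coefficient per group (9 residual degrees of freedom), and Benjamini-Hochberg adjustment over all genes tested. A gene was called at an adjusted p below 0.05. Every adjusted p in the text is from this test unless an alternative is named. The standard error (SE) comes from the fold change and its F statistic. With 2 libraries against 2 an exact permutation test cannot go below p = 0.333 and was not used. A group at 0 counts was compared through a floor of 3 counts over the group, and a group at 1 to 3 counts by a ratio with its 95% counting interval; both cover counting error only. The fit was tested on simulated data.

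The genes, lists and comparisons were chosen with earlier results of these data known. The text names the 7 genes, the tested S100 genes, the known partners of each, the nearest neighbours and the 5 genes most like S100A16; some genes under this rule are not reported here. The fit covers all genes, but no p is given for S100A16 in any comparison with OPM2, nor for any of the 7 genes in treated OPM2 cells. Promoter windows came from RefSeq (GRCh38.p14), with a match for 7 of 7 genes. Alternatives were other scalings, filters and tests (DESeq2 1.42.0, limma-voom with limma 3.58.1), a fit of the compared libraries only, a replicate block and leaving out single libraries.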

Additional observations from a re-analysis of the deposited data

Results flagged for a closer look

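The effect of IKZF1 loss differed between H929 and MM1S, by the test of the difference itself (edgeR's quasi-likelihood test, H929 minus MM1S, log2), for S100A10 at 2.91 (adjusted p = 0.00198), AHNAK at 6.02 (adjusted p = 1.66e-06), ANXA2 at 0.64 (adjusted p = 0.0383), SYT1 at -2.39 (adjusted p = 0.00149) and TLR4 at -2.68 (adjusted p = 0.00317). TLR4, a receptor that some S100 proteins activate, averaged 7.64 CPM in H929 empty vector and 1.63 without IKZF1, against 70.2 and 96.1 in MM1S.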

How the results depend on the processing

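In treated OPM2 cells the 1 gene past the threshold was S100A16, which chose the set, so these counts support nothing. Of the alternatives for counts of S100 genes called, 109 gave a count close to the one reported and 19 did not. With no low-count filter H929 had 1 call and lenalidomide 2. DESeq2 also gave lenalidomide 2. In fits of the compared libraries only, MM1S had 2, lenalidomide 3, the OPM2 IKZF3 knockout 0, and empty vector against untreated OPM2 0, where 0 of 12434 genes were called. S100A16 with lenalidomide was 6.75 by DESeq2 and 6.60 by limma-voom. Leaving out 1 library gave 0 to 2 calls in H929, 1 to 2 in MM1S, 3 to 5 for OPM2 against H929, 1 to 4 for OPM2 against MM1S, 0 to 2 for empty vector against untreated, 1 to 2 for each OPM2 knockout and 1 to 3 for lenalidomide. S100A11 in OPM2 against H929 reversed to -0.25 without OPM2 empty vector replicate 1 and was 0.41 without replicate 2; the cause was not tested. Of the single gene values, 856 kept direction and side of the threshold, 45 lost and 36 gained a call. With the replicate block among control libraries, empty vector against untreated OPM2 had 0 calls among the S100 genes, S100A11 lost its calls there (adjusted p = 0.0809) and against MM1S (adjusted p = 0.0585), and in a fit of the control libraries alone 1589 genes were called with the block and 1893 without; the numbers did not pair the libraries (correlations of -0.0762 to 0.123). No paired analysis was run for the knockouts, whose count columns carry other numbers than the sample titles. The authors' log2 FPKM columns do carry the title numbers. There S100A4 in the H929 knockout stood at 5.54 in replicate 1 and 7.69 in replicate 2, the order of libraries a and b (26.8 and 117 CPM). The share of all genes called also moved: 4.57% to 22.2% in H929, 15.5% to 55.4% in MM1S, 9.56% to 29.5% for their difference, 0.929% to 53.4% and 0.419% to 53.6% for the OPM2 IKZF1 and IKZF3 knockouts, 3.87% to 45.4% for lenalidomide and 0% to 52.5% for empty vector against untreated. Those of both OPM2 knockouts were lowest in fits of the compared libraries only. Depth limits S100A13, at 1 to 39 counts, and the low OPM2 values.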
